A study of Mus musculus with 8 samples.

Results

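The 9 genes examined here make or break down eicosanoids and related lipid mediators: Ptgs1, Ptgs2, Ptges, Hpgds, Hpgd, Alox5, Alox5ap, Ltc4s and Pla2g7. They were chosen by name, as 9 of the 24787 genes counted in 8 single-cell RNA-seq libraries. Each library came from 1 subcutaneous MC38 tumor, MC38 being a mouse colon carcinoma line, grown in an 8-week-old female C57BL/6J mouse and collected 24 h after 1 injection. The mice received saline (n = 3 tumors), free R848 (n = 3) or medium R848-BPD (n = 2). R848, or resiquimod, is an agonist of the endosomal RNA sensors TLR7 and TLR8. The R848-BPD is a bottlebrush polymer prodrug that carries R848 on cleavable linkers, "medium" being the linker of intermediate release rate. The transplanted line stands for the tumor cells in all 3 groups, no engineered allele is named for the mice, and the dose is not given in the labels. Tumors were dissociated, separated on CD45 beads and loaded with CD45+ cells in large excess, so the ratio of CD45+ to CD45- cells is set by the loading and was not compared. Shares within the CD45+ classes are given beside the results they move with.

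Eicosanoids are signaling lipids made from arachidonic acid that phospholipases free from membranes. The cyclooxygenases COX-1 (Ptgs1) and COX-2 (Ptgs2) turn it into prostaglandin H2, from which terminal synthases make PGE2 (Ptges) or PGD2 (Hpgds), and 15-hydroxyprostaglandin dehydrogenase (Hpgd) inactivates them. In the leukotriene branch, 5-lipoxygenase (Alox5) needs its partner FLAP (Alox5ap) to make leukotriene A4, which leukotriene C4 synthase (Ltc4s) joins to glutathione. Pla2g7 encodes the secreted PAF acetylhydrolase, which cleaves platelet-activating factor and oxidized phospholipids. In tumors, COX-2 and PGE2 are best known as products of macrophages, fibroblasts and cancer cells that dampen dendritic, NK and T cells.

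Ptges and Pla2g7 were higher in monocyte/macrophage-like cells after the medium R848-BPD than after free R848 or saline. Ptges averaged 35.2 ± 4.69 CPM (SD, n = 2; CPM, counts per 1000000 UMIs) against 4.07 ± 1.28 (n = 3) and 3.10 ± 0.585 CPM (n = 3), and Pla2g7 averaged 2133 ± 199 against 917 ± 102 and 469 ± 69.8 CPM. The other members tested did not pass the test in those comparisons. In the same cells Ptgs2 was abundant in all 8 tumors and was lowest, among the 3 group means, after the medium R848-BPD. Alox5ap was lower after the medium R848-BPD than after saline in the dendritic cell-like (DC-like) and MC38-like cells. Of the 550 Alox5 UMIs, 317 lay in NK-like cells.

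The promoters of 3 members are shown because the results turn on these genes: the inducible cyclooxygenase, PGE2 synthase and PAF acetylhydrolase genes. Ptges and Pla2g7 differed between the R848 forms in monocyte/macrophage-like cells only. Against saline, Pla2g7 was higher after the medium R848-BPD in monocyte/macrophage-, DC- and NK-like cells. Sequences are from RefSeq on GRCm38.p6, 5′ to 3′ on the strand of the gene, from the 250 bases before the RefSeq start of the gene. Ptgs2 is shown from chr1:150099781-150100030 (+ strand), Ptges from chr2:30903298-30903547 (- strand) and Pla2g7 from chr17:43568201-43568268 (+ strand). Capitals mark matches to the motifs searched.
Ptgs2: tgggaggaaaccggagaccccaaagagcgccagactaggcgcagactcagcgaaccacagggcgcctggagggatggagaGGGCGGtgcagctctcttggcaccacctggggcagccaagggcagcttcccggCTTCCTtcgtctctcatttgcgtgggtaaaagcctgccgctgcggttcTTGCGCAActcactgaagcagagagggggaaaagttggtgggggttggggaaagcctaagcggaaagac
Ptges: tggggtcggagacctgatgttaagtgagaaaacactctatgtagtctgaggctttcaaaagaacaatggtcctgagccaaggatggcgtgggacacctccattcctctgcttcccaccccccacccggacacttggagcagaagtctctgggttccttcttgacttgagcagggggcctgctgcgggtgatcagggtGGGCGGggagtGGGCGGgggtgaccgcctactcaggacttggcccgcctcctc
Pla2g7: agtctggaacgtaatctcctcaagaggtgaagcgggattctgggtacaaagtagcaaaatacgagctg

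The 9 motifs searched on both strands began with the TATA box, spelled TATAAA, and the AP-1 site, spelled TGANTCA. The half-site of the cyclic AMP response element was TGACGT, the E-box was CACGTG and the C/EBP site was TTNNGCAA. The ETS site was AGGAAG, the GC box was GGGCGG, and NF-kB and ISRE motifs were searched as well. No match overlapped another in these 3 sequences. The Ptgs2 window held a GC box, an ETS match and a C/EBP match, the last at 69 to 62 bases before the start. Among 32851 promoters of 250 bases, 32.7% held a GC box, 29.5% an ETS match and 9.56% a C/EBP match. The Ptges window held 2 GC boxes, which begin 53 and 42 bases before the start, and no other motif. The Pla2g7 sequence was cut to the first 68 of its 250 bases, since the rest lies in an exon of the GENCODE annotation. These 68 bases held none of the 9, and the part not shown held a GC box at 13 to 8 bases before the RefSeq start. The GENCODE models of Pla2g7 and Ptges also have first exons upstream of these windows, so the gene spans given at the end begin before them. A match is a description of the letters and not a bound site. Of the 9 members, 8 had an entry in the promoter table, all but Alox5ap.

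After limits on genes, UMIs and mitochondrial share, and after 59 cells whose barcodes (23 sequences) occurred in more than 1 tumor were left out, 9827 cells remained and 9031 were assigned to a class by marker genes. The classes were rebuilt from markers and are called "-like". They were monocyte/macrophage-like (5365 cells, median 5135 UMIs), MC38-like (1583 cells, median 11400), NK-like (914 cells, median 5868), DC-like (421 cells, median 4122) and T-like (421 cells, median 4602), besides small classes of osteoclast-, neutrophil-, fibroblast- and pDC-like cells. Each tumor held between 5867590 and 12422614 UMIs. The saline tumor 2 stood apart: monocyte-like cells were 2.97% of its monocyte/macrophage-like cells, against 32.9% and 33.0% in the other 2 saline tumors, and it held only 11 DC-like cells. Values without it are given below where they change a call. A fit without 1 medium R848-BPD tumor leaves that group with 1 tumor, which is then assumed to vary like the other groups. Mast cells, which are rich in Ltc4s, Hpgds and Alox5, were rarely found: 3 of the 9827 cells carried at least 3 of 7 mast cell markers. No cell passed the same rule for basophils or eosinophils. Cells with few UMIs can fail this rule. Over all cells there were 152 UMIs of Cpa3, 131 of Mcpt4 and 227 of the basophil marker Mcpt8. Levels are CPM of the class in a tumor, that is the UMIs of a gene scaled to all UMIs of that class, and each tumor is 1 replicate. Libraries read the 3′ ends of transcripts, so levels were compared between tumors and classes and not between genes.

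Ptgs2, which encodes the inducible cyclooxygenase, gave 22221 UMIs in 3866 cells. Its level in monocyte/macrophage-like cells was 709, 255 and 1046 CPM in the 3 saline tumors. It was 516, 553 and 676 CPM after free R848, and 390 and 374 CPM after the medium R848-BPD. Both medium R848-BPD tumors lay below all 3 free R848 tumors but above saline tumor 2, so that saline overlapped with both treatments. The means were 670 ± 397 (SD, n = 3), 582 ± 83.5 (n = 3) and 382 ± 11.4 CPM (n = 2). The log2 difference between medium R848-BPD and free R848 was -0.58 (SE 0.48), with an adjusted p of 0.665 (edgeR). Against saline it was -0.80 (SE 0.48, adjusted p = 0.348, edgeR), and without saline tumor 2 it was -1.20 (adjusted p = 0.00748, edgeR). Ptgs2 is also induced by tissue dissociation. The summed level of 16 dissociation-response genes in these cells was 7956, 5383 and 7735 CPM in the saline tumors, 5961 to 7677 CPM after free R848, and 5150 and 6636 CPM after the medium R848-BPD. Saline tumor 2 was the lowest of its group in both measures, and the part of dissociation in the Ptgs2 differences was not tested.

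Ptgs2 was also measured in the DC-like cells. Its level was 243, 61.0 and 558 CPM after saline, 70.8, 343 and 457 CPM after free R848, and 384 and 672 CPM after the medium R848-BPD. The 3 groups overlapped, and within this class no comparison passed the test (medium R848-BPD minus free R848, log2 0.85, SE 0.55, adjusted p = 0.795, edgeR). In mature DC-like cells alone, whose share of the class differed between the groups as given with Alox5ap, it was 419 and 914 CPM in saline tumors 1 and 3, 74.9, 240 and 425 CPM after free R848, and 392 and 609 CPM after the medium R848-BPD. Few cells carried these values: 1 cell held 45 of the 98 DC-like UMIs of saline tumor 3 and 34 of the 78 of free R848 tumor 2. The difference between the classes was itself tested. The change from free R848 to the medium R848-BPD was lower in monocyte/macrophage-like than in DC-like cells by a log2 value of 1.59 (written -1.59, SE 0.38, adjusted p = 0.0246, edgeR interaction). At this threshold 47 of 10164 genes, 0.462%, differed between these classes. The call was lost with another scaling and without free R848 tumor 1, free R848 tumor 3 or medium R848-BPD tumor 2, with log2 values from -1.01 to -1.86.

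Within the monocyte/macrophage-like class, Ptgs2 was seen in both subsets. In monocyte-like cells, which scored higher for monocyte markers such as Ly6c2 than for macrophage markers such as C1qa, it was 913, 481 and 1632 CPM after saline, 514, 797 and 645 CPM after free R848, and 963 and 960 CPM after the medium R848-BPD. In macrophage-like cells it was 642, 250 and 865 CPM, then 517, 527 and 683 CPM, then 344 and 324 CPM. The macrophage-like cells of both medium R848-BPD tumors were below those of all free R848 tumors, whereas their monocyte-like cells were above them. Monocyte-like cells were 32.9%, 2.97% and 33.0% of the class after saline, 23.4%, 13.9% and 23.3% after free R848, and 11.1% and 9.82% after the medium R848-BPD, and the part of these shares in the Ptgs2 level of the whole class was not tested. Over the 8 tumors, Ptgs2 was lower in macrophage- than in monocyte-like cells in 6 tumors (mean log2 -0.74, adjusted p = 0.0563, exact sign-flip permutation test, two-sided). In MC38-like cells Ptgs2 ranged from 58.4 to 110 CPM, with the highest value in medium R848-BPD tumor 2 (medium R848-BPD minus saline, log2 0.46, SE 0.19, adjusted p = 0.273, edgeR).

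Ptgs1, which encodes the constitutive cyclooxygenase, was sparse, with 283 UMIs in 216 cells. Its monocyte/macrophage-like level was 15.4, 9.95 and 4.06 CPM after saline, 2.65, 7.95 and 2.25 CPM after free R848, and 2.65 and 2.22 CPM after the medium R848-BPD. The saline and free R848 groups overlapped, and the medium R848-BPD tumors lay below all saline tumors. The log2 difference of medium R848-BPD and saline was -1.98 (SE 0.66, adjusted p = 0.109, edgeR), and that of free R848 and saline was -1.17 (SE 0.53, adjusted p = 0.41, edgeR). Neither passed the threshold, and the 2 medium R848-BPD tumors rest on 15 and 6 UMIs.

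Ptges, which encodes the inducible microsomal PGE2 synthase that works with COX-2, gave the largest difference of the members in monocyte/macrophage-like cells. It was 3.74, 2.97 and 2.59 CPM after saline and 5.06, 4.54 and 2.62 CPM after free R848. After the medium R848-BPD it was 31.9 and 38.5 CPM. Both medium R848-BPD tumors were far above all 6 others, and the saline and free R848 tumors overlapped. The log2 difference was 3.09 against free R848 (SE 0.26, adjusted p = 0.00105, edgeR) and 3.52 against saline (SE 0.26, adjusted p = 3.6e-04, edgeR). Between free R848 and saline it was 0.42 (SE 0.29, adjusted p = 0.582, edgeR). The call between the 2 treatments was kept whichever tumor was left out. Both subsets of the class held Ptges after the medium R848-BPD, at 56.2 and 93.2 CPM in monocyte-like and 29.9 and 33.8 CPM in macrophage-like cells. In the saline and free R848 tumors it was at most 7.17 CPM in monocyte-like and 5.04 CPM in macrophage-like cells. The monocyte-like values after the medium R848-BPD rest on 24 and 20 UMIs.

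**Figure D1:**
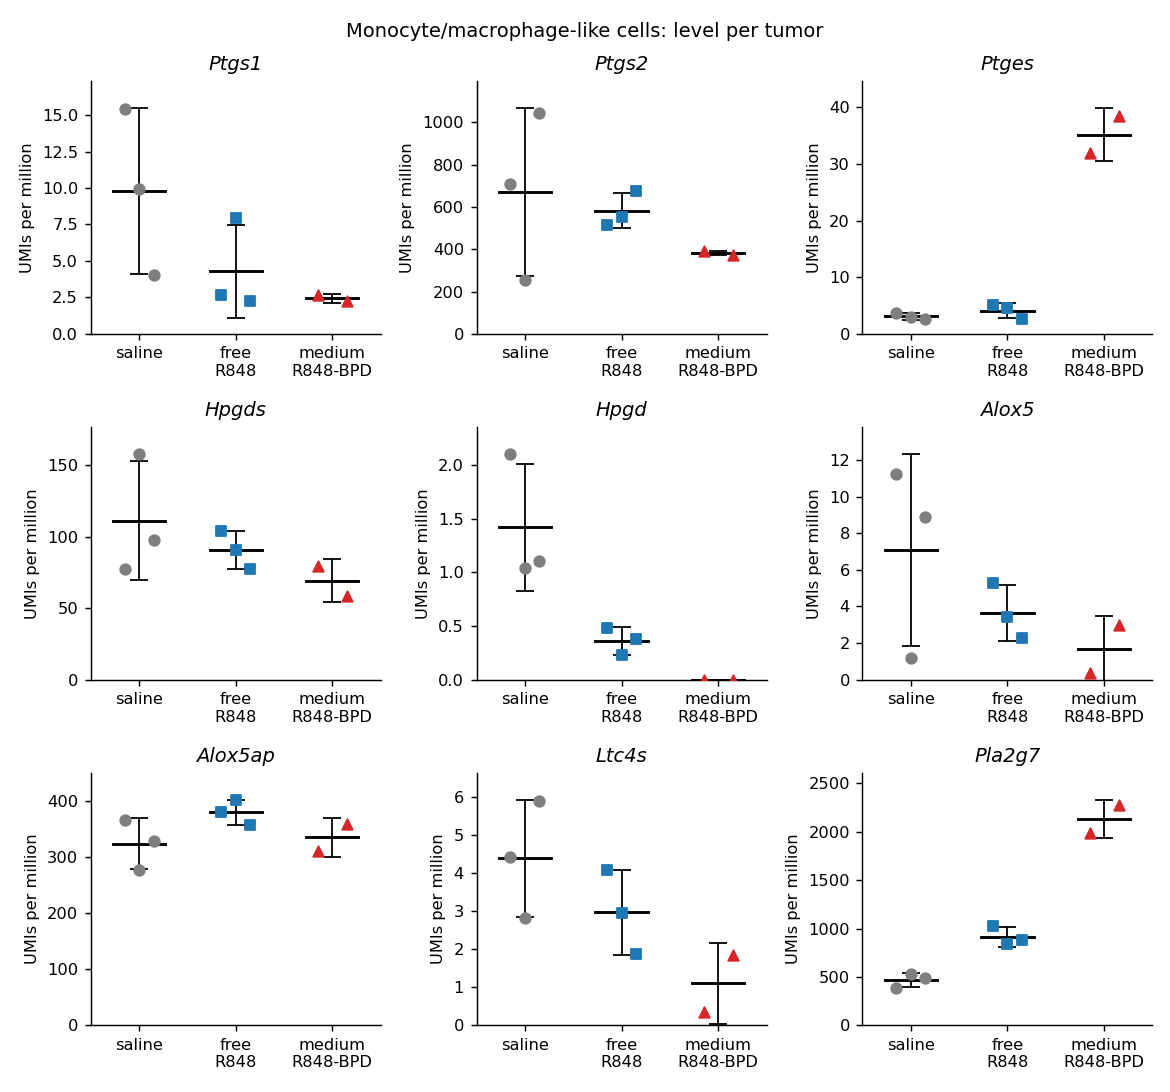
Level of each of the 9 members in monocyte/macrophage-like cells, in CPM, with 1 point per tumor and a bar at the group mean, for saline, free R848 and medium R848-BPD. Ptges is 31.9 and 38.5 CPM in the medium R848-BPD tumors and at most 5.06 CPM in the others, and Pla2g7 rises from 392 to 526 CPM after saline to 1993 and 2274 CPM.

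The same plot of member levels by tumor shows the 2 genes apart from the rest: in Ptges and Pla2g7 the medium R848-BPD points lie above all other points, whereas in Alox5ap and Hpgds the 3 groups lie close together. Ptges UMIs came from few cells. Of the monocyte/macrophage-like cells, 84 of 705 and 42 of 499 carried a Ptges UMI in the medium R848-BPD tumors, against 17 of 526, 16 of 768 and 7 of 486 after free R848 and 16 of 757, 18 of 975 and 7 of 649 after saline. The highest single cell held 13 of 180 UMIs in one medium R848-BPD tumor and 17 of 104 in the other. Without that cell the levels were 29.6 and 32.3 CPM, so the difference did not rest on single cells. With every cell thinned to 1000 UMIs, the mean share of monocyte/macrophage-like cells with a Ptges UMI was 0.209%, 0.76% and 2.93% (saline, free R848, medium R848-BPD). In the medium R848-BPD tumors, 0 of 110 T-like cells (upper limit 2.73%, from 3 counts), 1 of 146 DC-like cells and 3 of 253 NK-like cells had one at that depth. All 3 NK-like cells were among the 50 of medium R848-BPD tumor 2, a share of 6.0% against 2.61% of the monocyte/macrophage-like cells of that tumor. Neutrophil-like cells also held Ptges UMIs and, being few, are given under other observations. Without thinning, 126 of 1204 monocyte/macrophage-like, 1 of 111 T-like and 4 of 253 NK-like cells had one. The limits and intervals given here cover counting error only. With 2 or 3 tumors a group, the exact permutation test (two-sided) of these shares cannot go below 0.1, the value it gave for Ptges.

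MC38-like cells held most Ptges in these tumors. Their level was 237, 185 and 266 CPM after saline, 220, 195 and 166 CPM after free R848, and 297 and 103 CPM after the medium R848-BPD. The 2 medium R848-BPD tumors were the highest and the lowest of the 8, and the log2 difference from free R848 was 0.01 (SE 0.30, adjusted p = 0.998, edgeR). Without medium R848-BPD tumor 1 the MC38-like cells gave a log2 difference of -0.88 from free R848 (adjusted p = 0.0259, edgeR) and of -1.08 from saline (adjusted p = 0.00716, edgeR). Both rest on 1 medium R848-BPD tumor with the spread taken from the other groups, and the value in the tumor cells is decided by that choice of tumor. The change from free R848 to the medium R848-BPD was greater in monocyte/macrophage-like than in MC38-like cells by a log2 value of 3.17 (SE 0.46, adjusted p = 0.0108, edgeR interaction). Of 11786 genes in that test, 65, or 0.552%, were called. The call was lost without free R848 tumor 1 (log2 3.24, adjusted p = 0.0884) or free R848 tumor 3 (log2 3.08, adjusted p = 0.0577, edgeR).

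Transcripts of tumor cells in the monocyte/macrophage-like cells were measured beside this result. Ptges in the monocyte/macrophage-like cells was 1.58%, 1.61% and 0.972% of its level in the MC38-like cells of the same saline tumor, 2.30%, 2.33% and 1.58% after free R848, and 10.7% and 37.5% after the medium R848-BPD. Of the 4 MC38 markers measured in the same way, Rhox5 stood at 1.84% to 3.85%, Col6a2 at 0.419% to 1.43%, Fam159b at 1.39% to 4.27% and Mtap at 5.56% to 7.80% over all 8 tumors. In monocyte/macrophage-like cells without a UMI of Rhox5, Col6a2 or Fam159b, Ptges was 33.6 and 35.6 CPM after the medium R848-BPD and 2.47 to 4.0 CPM in the other tumors. Cells with Mtap UMIs were kept in that count. In saline and free R848 tumors the Ptges share lay within the range of these markers. A level of Ptges in their monocyte/macrophage-like cells above such background was not detectable.

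In the plot of Ptges beside MC38 markers, only the Ptges points of the medium R848-BPD tumors leave the band in which that gene's other points lie. Ptges was at 0 in the DC-like cells of all saline and free R848 tumors and at 1.98 and 25.4 CPM in those of the medium R848-BPD tumors. These 2 values rest on 1 UMI in 1 cell and 6 UMIs in 2 cells. Without the highest cell they were 0 and 12.9 CPM, and the zeros come from 11 to 88 DC-like cells per tumor. In NK-like cells it was 1.66 and 49.2 CPM after the medium R848-BPD, but 9 of the 13 UMIs of the second tumor lay in 1 cell.

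Hpgds, the PGD2 synthase of hematopoietic cells, was 77.5, 158 and 97.9 CPM in monocyte/macrophage-like cells after saline, 104, 90.9 and 77.2 CPM after free R848, and 79.6 and 58.5 CPM after the medium R848-BPD. The groups overlapped, with the highest value in saline tumor 2. The log2 difference of medium R848-BPD and free R848 was -0.36 (SE 0.25, adjusted p = 0.598, edgeR), and that of medium R848-BPD and saline was -0.64 (SE 0.25, adjusted p = 0.162, edgeR). Within the class, Hpgds was higher in macrophage- than in monocyte-like cells in 8 of 8 tumors, by a mean log2 value of 3.25 (adjusted p = 0.0234, exact sign-flip permutation test, two-sided). It was also higher in the monocyte/macrophage-like than in the DC-like cells in 8 of 8 tumors (mean log2 4.62).

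Hpgd, the enzyme that inactivates prostaglandins, was near the limit of detection, with 44 UMIs in all, and failed the filter on low counts in every class. Among monocyte/macrophage-like cells it had 9, 7 and 3 UMIs after saline, 2, 1 and 1 after free R848, and 0 and 0 after the medium R848-BPD. At full depth a UMI was seen in 17 of 2381 saline cells, 4 of 1780 free R848 cells and 0 of 1204 medium R848-BPD cells (upper limit 0.249%). The CPM of the 3 groups, which the UMIs above give as 1.04 to 2.10, 0.227 to 0.481 and 0, did not overlap. The difference was not tested by edgeR.

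Alox5, which encodes 5-lipoxygenase, was highest in NK-like cells among the 5 largest classes, at 70.2, 26.8 and 61.0 CPM after saline, 78.1, 46.3 and 48.2 CPM after free R848, and 26.5 and 30.3 CPM after the medium R848-BPD. The medium R848-BPD tumors were below all free R848 tumors and overlapped with saline tumor 2, and the log2 difference from free R848 was -1.09 (SE 0.37, adjusted p = 0.339, edgeR). In 8 of 8 tumors Alox5 was higher in NK-like than in monocyte/macrophage-like cells, by a mean log2 value of 3.40 (adjusted p = 0.0402, exact sign-flip permutation test, two-sided). In the monocyte/macrophage-like cells it was 11.2, 1.19 and 8.87 CPM after saline, 5.30, 3.41 and 2.25 CPM after free R848, and 0.354 and 2.96 CPM after the medium R848-BPD. All 3 groups overlapped. One cell held 17 of the 22 UMIs of free R848 tumor 1, whose level without it was 1.21 CPM. The log2 difference of medium R848-BPD and saline was -2.31 (SE 1.09, adjusted p = 0.228, edgeR), and without saline tumor 2 it was -2.96 (adjusted p = 0.0193, edgeR).

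Alox5ap encodes the activating partner of 5-lipoxygenase. Among monocyte/macrophage-like cells it was 367, 277 and 330 CPM after saline, 381, 403 and 357 CPM after free R848, and 312 and 361 CPM after the medium R848-BPD. The groups overlapped and no comparison passed the test (medium R848-BPD minus free R848, log2 -0.14, SE 0.17, adjusted p = 0.781, edgeR). In the DC-like cells it was 316, 203 and 182 CPM after saline, 54.5, 163 and 134 CPM after free R848, and 43.6 and 38.0 CPM after the medium R848-BPD. There the saline group lay above both treatments without overlap, and the medium R848-BPD group lay lowest. Between medium R848-BPD and saline Alox5ap fell by 2.55 on the log2 scale (SE 0.41, adjusted p = 0.00135, edgeR). The differences of medium R848-BPD from free R848 (log2 -1.52, SE 0.43, adjusted p = 0.208) and of free R848 from saline (log2 -1.03, SE 0.34, adjusted p = 0.115, edgeR) did not pass.

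The make-up of the DC-like class moved with this result. Mature cells, which scored higher for markers such as Ccr7 and Fscn1 than for those of other dendritic cells, were 50%, 54.5% and 63.8% of the DC-like cells after saline, 93.8%, 83.3% and 92.1% after free R848, and 95.6% and 94.5% after the medium R848-BPD. In mature DC-like cells alone, Alox5ap was 172 and 94.2 CPM in saline tumors 1 and 3, 23.0, 65.3 and 102 CPM after free R848, and 27.1 and 26.7 CPM after the medium R848-BPD. The saline and free R848 values overlapped within the mature cells, and the medium R848-BPD values lay below both saline values. In the other DC-like cells of saline tumors 1 and 3 it was 452 and 317 CPM. The part of maturation in the Alox5ap difference was not tested.

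In MC38-like cells Alox5ap was 23.0, 23.7 and 44.8 CPM after saline, 15.5, 23.6 and 27.1 CPM after free R848, and 9.04 and 6.98 CPM after the medium R848-BPD. The medium R848-BPD tumors were below the other 6, and Alox5ap fell by 1.82 against saline (log2, SE 0.35, adjusted p = 0.0217, edgeR), a call lost without medium R848-BPD tumor 2 (log2 -1.62, adjusted p = 0.199, edgeR). These values are small beside the macrophages': they were 6.26%, 8.54% and 13.6% of the monocyte/macrophage-like level in the saline tumors and 2.90% and 1.93% in the medium R848-BPD tumors. The summed level of 10 macrophage markers in the MC38-like cells was 1.27%, 3.95% and 1.90% of that in monocyte/macrophage-like cells after saline, 1.58%, 1.48% and 0.750% after free R848, and 1.06% and 0.671% after the medium R848-BPD. The part of macrophage RNA in the Alox5ap difference of these cells was not tested.

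Ltc4s, which makes the first cysteinyl leukotriene, gave 113 UMIs in 67 cells and none in the NK-, T- or MC38-like cells of any tumor. Its monocyte/macrophage-like level was 4.44, 2.82 and 5.91 CPM after saline, 4.09, 2.95 and 1.87 CPM after free R848, and 0.354 and 1.85 CPM after the medium R848-BPD. The medium R848-BPD tumors lay below the others, but this order rests on single cells. One cell held 14 of the 17 UMIs of free R848 tumor 1, and without the highest cell of each tumor the free R848 levels were 0.729, 2.05 and 0.751 CPM and the medium R848-BPD levels 0 and 1.49 CPM. The log2 difference from saline was -2.17 (SE 0.70, adjusted p = 0.0987, edgeR), and without saline tumor 2 it was -2.5 (adjusted p = 0.0391, edgeR). An antisense gene, Gm26542, overlaps Ltc4s, and 1700071M16Rik overlaps Pla2g7. Whether the counting used strand is not given in the sources used here.

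Pla2g7, the PAF acetylhydrolase, was the member with most UMIs (38782 in 5241 cells) and was higher after the medium R848-BPD than after saline in 3 classes. Monocyte/macrophage-like cells held 392, 526 and 491 CPM after saline, 1032, 840 and 879 CPM after free R848, and 1993 and 2274 CPM after the medium R848-BPD. The 3 groups did not overlap. The log2 difference was 2.23 for medium R848-BPD and saline (SE 0.17, adjusted p = 4.1e-04, edgeR) and 1.26 for medium R848-BPD and free R848 (SE 0.17, adjusted p = 0.0153, edgeR). For free R848 and saline it was 0.97 (SE 0.16, adjusted p = 0.188, edgeR), and without saline tumor 2 it was 1.02 (adjusted p = 0.0272, edgeR). The call against free R848 was lost without free R848 tumor 1, 2 or 3 or medium R848-BPD tumor 2 (log2 1.11 to 1.33, edgeR). It was also lost with the replicate block.

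The rise of Pla2g7 was spread over many cells. With each cell thinned to 1000 UMIs, the share of monocyte/macrophage-like cells with a Pla2g7 UMI was 31.4% ± 1.76 after saline (SD, n = 3 tumors), 53.4% ± 5.09 after free R848 (n = 3) and 84.4% ± 4.55 after the medium R848-BPD (n = 2). Without thinning the shares were 65.3%, 85.3% and 99.0%. In T-like cells, taken as a class that should lack the gene, the thinned shares were 1.57%, 2.28% and 5.09% and the unthinned shares were 4.55%, 6.29% and 14.7%. The median depths of these classes were 5135 and 4602 UMIs. The T-like shares were higher where the macrophage level was higher and stayed far below the macrophage shares. Within the class, Pla2g7 was lower in macrophage- than in monocyte-like cells in 8 of 8 tumors (mean log2 -0.56, adjusted p = 0.0234, exact sign-flip permutation test, two-sided).

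In the DC-like cells Pla2g7 was 71.3, 0 and 114 CPM after saline, 212, 149 and 204 CPM after free R848, and 311 and 609 CPM after the medium R848-BPD. Few cells carried most of these UMIs. The 5 highest cells held 77.1% of 35 UMIs in saline tumor 1 and 90% of 20 in saline tumor 3. They held 61.8% to 89.7% after free R848, and 56.7% and 50% after the medium R848-BPD. The groups did not overlap. The log2 difference of medium R848-BPD and saline was 2.59 (SE 0.43, adjusted p = 0.00177, edgeR), while that of medium R848-BPD and free R848 was 1.27 (SE 0.39, adjusted p = 0.276, edgeR). In mature DC-like cells alone the levels were 134 and 122 CPM in saline tumors 1 and 3, 225, 185 and 216 CPM after free R848, and 327 and 631 CPM after the medium R848-BPD, again without overlap. The change from free R848 to the medium R848-BPD differed between the 2 classes by a log2 value of -0.03 (SE 0.37, monocyte/macrophage-like minus DC-like, edgeR interaction). Whether macrophage RNA had a part in the DC-like difference was not tested.

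In the lymphoid classes Pla2g7 was low. In NK-like cells it was 4.33, 5.02 and 7.43 CPM after saline, 12.2, 8.75 and 10.95 CPM after free R848, and 24.3 and 148 CPM after the medium R848-BPD. The groups did not overlap, and the log2 difference of medium R848-BPD and saline was 3.58 (SE 0.67, adjusted p = 0.0101, edgeR). This call was lost without saline tumor 1 or medium R848-BPD tumor 2, and with classes drawn from clusters. The NK-like level was 0.954% to 1.52% of the monocyte/macrophage-like level in 7 tumors and 6.49% in medium R848-BPD tumor 2. The 10 macrophage markers in NK-like cells stood at 0.398% to 2.04% over the tumors and at 1.98% in that tumor, which had 50 NK-like cells. One cell held 17 of 44 and 16 of 39 Pla2g7 UMIs in the 2 medium R848-BPD tumors, and the levels without it were 15.2 and 88.8 CPM. The part of macrophage RNA in this difference was not tested. In T-like cells Pla2g7 was 58.8 and 228 CPM after the medium R848-BPD and 13.2 to 39.3 CPM in the other tumors (medium R848-BPD minus saline, log2 2.42, SE 0.65, adjusted p = 0.324, edgeR).

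**Figure D2:**
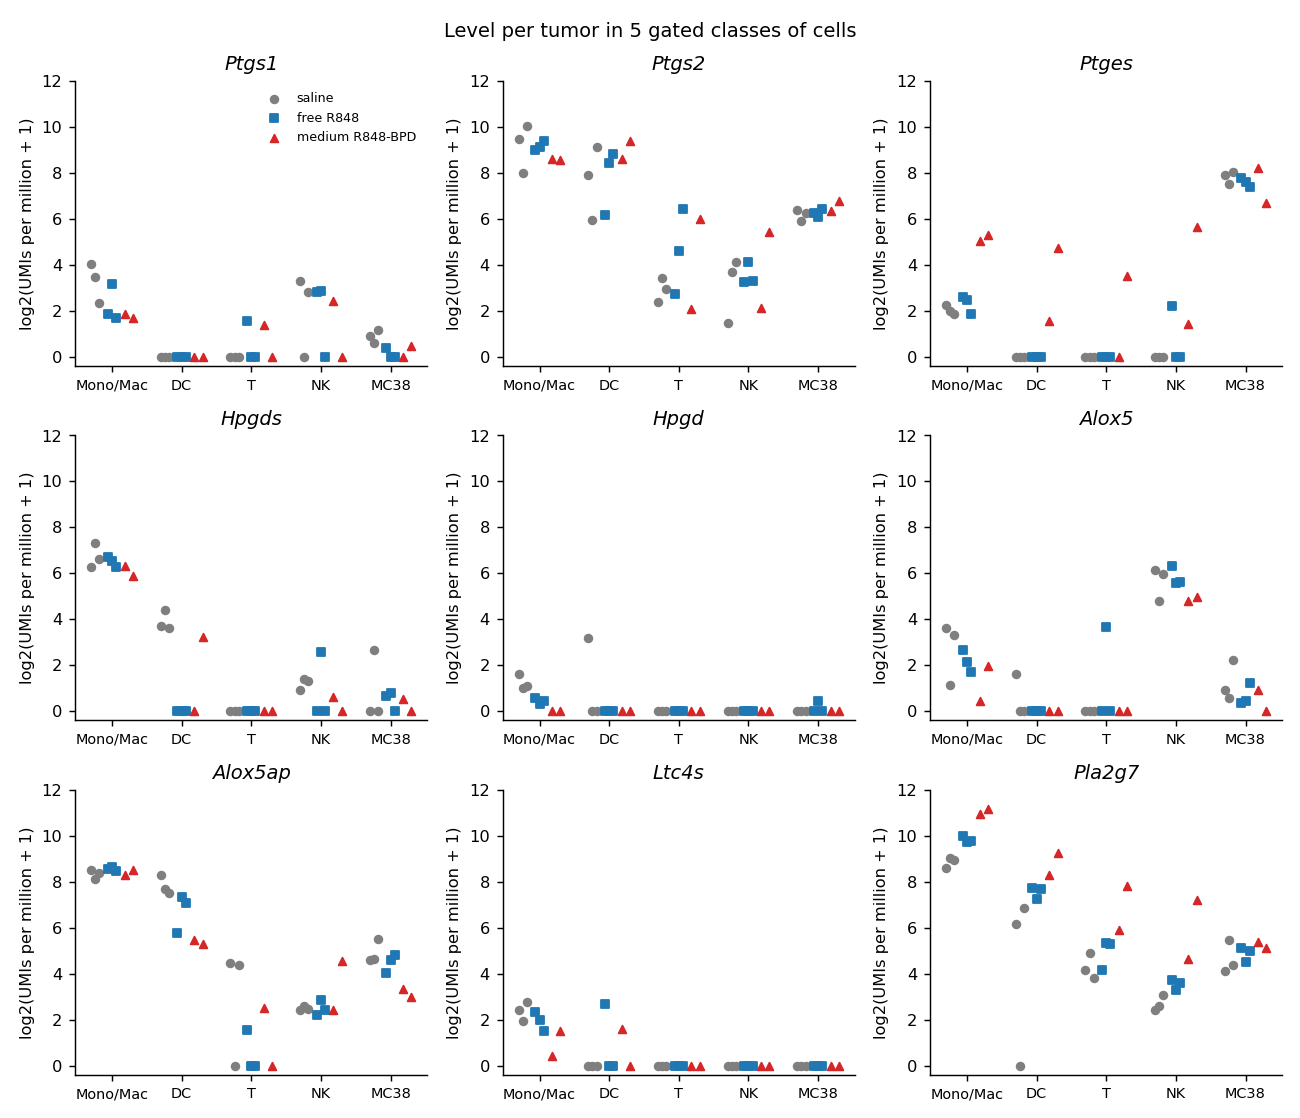
Mean level of each member over 8 tumors in the 5 largest cell classes, on a log2(CPM + 1) scale, with 1 point per tumor. Ptges is highest in MC38-like cells (103 to 297 CPM), Alox5 in NK-like cells (26.5 to 78.1 CPM), and Ptgs2, Alox5ap, Hpgds and Pla2g7 are highest on average in monocyte/macrophage-like cells.

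The plot by cell class shows the levels from which the classes were ordered for each member. Over the 9 members, 36 pairs of neighbors in these orders were compared by an exact sign-flip permutation test over the 8 tumors (two-sided, smallest possible p 0.0078125), and 7 passed after adjustment, each with 8 of 8 tumors in 1 direction (adjusted p = 0.0402). With a stricter gate on the classes, which left some classes with 6 or 7 tumors, none of the pairs passed. Of the 7, 6 were still neighbors, and each kept its direction in all 7 or 8 tumors that remained, at the smallest p that number allows (log2 1.72 to 5.05, adjusted p = 0.0563, exact sign-flip permutation test). The 7 pairs were Ptges in MC38-like above monocyte/macrophage-like cells (mean log2 4.73), Hpgds, Pla2g7 (3.13) and Alox5ap (1.63) in monocyte/macrophage-like above DC-like cells, Alox5ap in DC-like above MC38-like cells (2.5), Alox5 in NK-like above monocyte/macrophage-like cells, and Ptgs2 in MC38-like above T-like cells (2.49). Ptgs2 in monocyte/macrophage-like and DC-like cells did not separate (log2 0.97, higher in 7 of 8 tumors, adjusted p = 0.151). The sparse members Ptgs1, Hpgd and Ltc4s gave no pair that passed: Ltc4s in monocyte/macrophage-like above DC-like cells came closest (higher in 6 of 8 tumors, adjusted p = 0.0938).

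**Figure D3:**
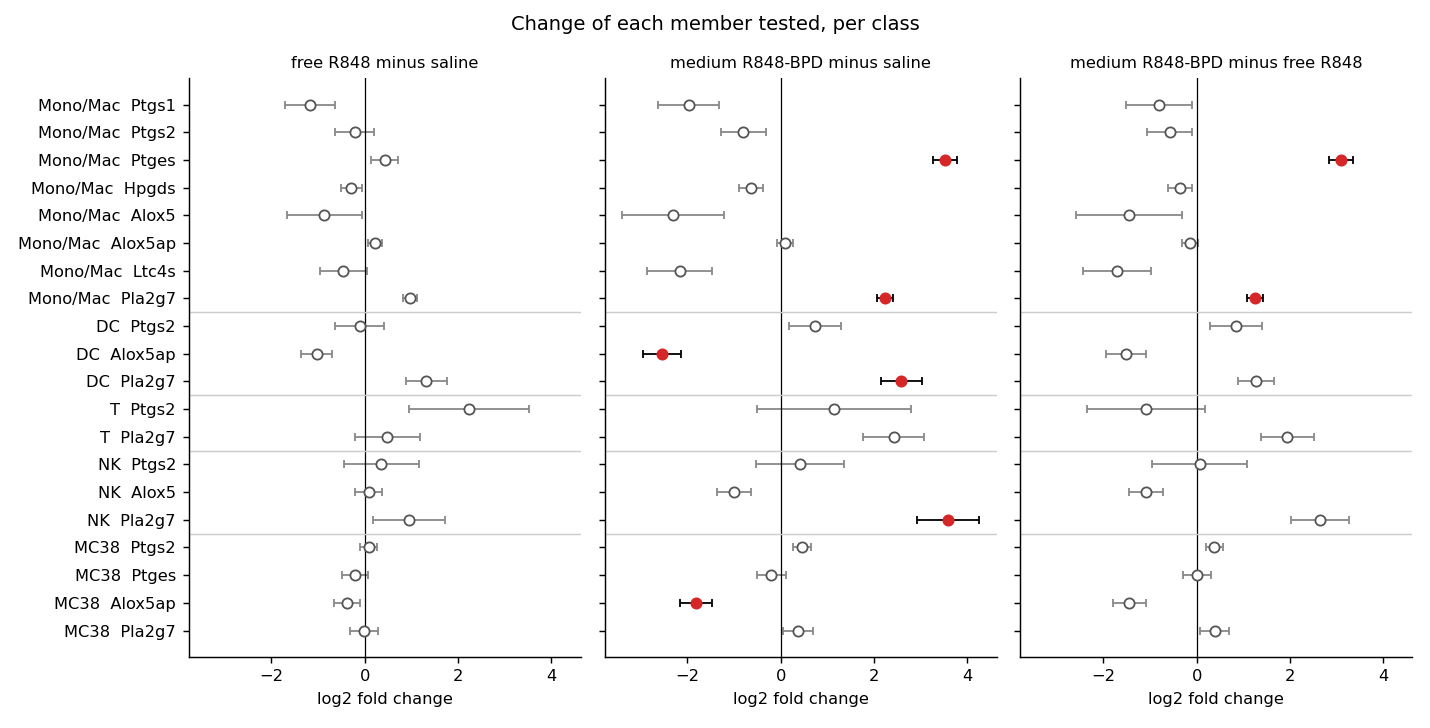
Log2 difference with its standard error for each tested member in each of the 5 cell classes, for the 3 comparisons, with filled points where the edgeR adjusted p is under 0.05. Ptges (3.09) and Pla2g7 (1.26) are the filled points for medium R848-BPD minus free R848, both in monocyte/macrophage-like cells.

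The counts of members are given beside those of all genes, as a description, since the members were chosen with earlier results of these data known. Of the 9, 8 could be tested in monocyte/macrophage-like cells. For medium R848-BPD and free R848, 2 of 8 were called, against 165 of 10660 genes (1.55%). For medium R848-BPD and saline it was again 2 of 8, against 744 genes (6.98%), and for free R848 and saline 0 of 8, against 3 genes (0.0281%). In that last comparison 1317 genes had an unadjusted p under 0.05, and DESeq2 called 1 member, Pla2g7.

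In the DC-like cells 3 members were tested, Alox5ap, Pla2g7 and Ptgs2. Of these, 2 were called for medium R848-BPD and saline, where 433 of 4465 genes (9.7%) were. None was called for medium R848-BPD and free R848 (11 genes, 0.246%) or free R848 and saline (75 genes, 1.68%). In the NK-like cells 1 of 3 members was called for medium R848-BPD and saline (68 of 8169 genes, 0.832%), 0 for medium R848-BPD and free R848 (26 genes, 0.318%) and 0 for free R848 and saline (0 genes, 0%). In the T-like cells 0 of 2 were called in any comparison, where 11 of 5527 genes (0.199%), 0 genes (0%) and 10 genes (0.181%) were called for medium R848-BPD and free R848, free R848 and saline, and medium R848-BPD and saline. The zero counts of edgeR for free R848 and saline stand beside unadjusted p-values under 0.05 for 222 genes of the T-like and 356 genes of the NK-like cells, and DESeq2 called 0 in both. In the MC38-like cells 1 of 4 members was called for medium R848-BPD and saline (178 of 10666 genes, 1.67%), 0 for medium R848-BPD and free R848 (68 genes, 0.638%) and 0 for free R848 and saline (6 genes, 0.0563%). As the plot of member changes shows, no member other than Ptges and Pla2g7 was called between the 2 R848 forms in any class.

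The wider pathway was read from 60 genes for phospholipid release, prostanoid enzymes and receptors, lipoxygenases, leukotriene receptors and PAF. In the monocyte/macrophage-like cells 34 of them could be tested. Between medium R848-BPD and free R848, 3 were higher and 1 was lower, beside 1.55% of all genes called. The median log2 difference of the 34 was -0.06, against -0.01 over all genes, and the median of its size without regard to sign was 0.45 against 0.21. Ptger2 and Ptger4 encode the 2 PGE2 receptors that raise cyclic AMP, and they went opposite ways. Ptger2 was 4.20, 4.01 and 2.96 CPM after saline, 5.06, 8.18 and 7.12 CPM after free R848, and 15.4 and 22.6 CPM after the medium R848-BPD. Ptger4 was 78.7, 77.3 and 82.0 CPM after saline, 58.3, 57.9 and 65.9 CPM after free R848, and 29.2 and 19.99 CPM after the medium R848-BPD. Neither gene's medium R848-BPD values overlapped with the other groups. Against free R848 Ptger2 differed by a log2 value of 1.5 (SE 0.29, adjusted p = 0.0439) and Ptger4 by -1.25 (SE 0.17, adjusted p = 0.0153, edgeR).

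Ptgr1 encodes prostaglandin reductase, which inactivates prostaglandins and leukotriene B4, and Mgst1 a membrane glutathione transferase related to FLAP. Ptgr1 was 22.2, 17.5 and 27.7 CPM after saline, 19.7, 28.6 and 18 CPM after free R848, and 68.5 and 113 CPM after the medium R848-BPD (against free R848, log2 2.05, SE 0.29, adjusted p = 0.0165, edgeR). Mgst1 was 16.6 to 25.9 CPM after saline, 17.7 to 27.2 CPM after free R848, and 52.9 and 115 CPM after the medium R848-BPD (log2 1.96, SE 0.34, adjusted p = 0.0287, edgeR). In both genes the medium R848-BPD tumors lay above the other 6. The comparison with saline, which shares the medium R848-BPD tumors, called the same 3 genes higher and 3 lower, beside 6.98% of all genes: Ptger4, the leukotriene D4 receptor gene Cysltr1 (log2 -0.86, SE 0.21, adjusted p = 0.0411) and Mgst3 (log2 -1.45, SE 0.32, adjusted p = 0.0307, edgeR). No gene of the list was called between free R848 and saline. Alternatives such as leaving out 1 tumor were read only for the members and the number of genes called. Calls of single genes of this list, in any class, were not checked in that way.

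**Figure D4:**
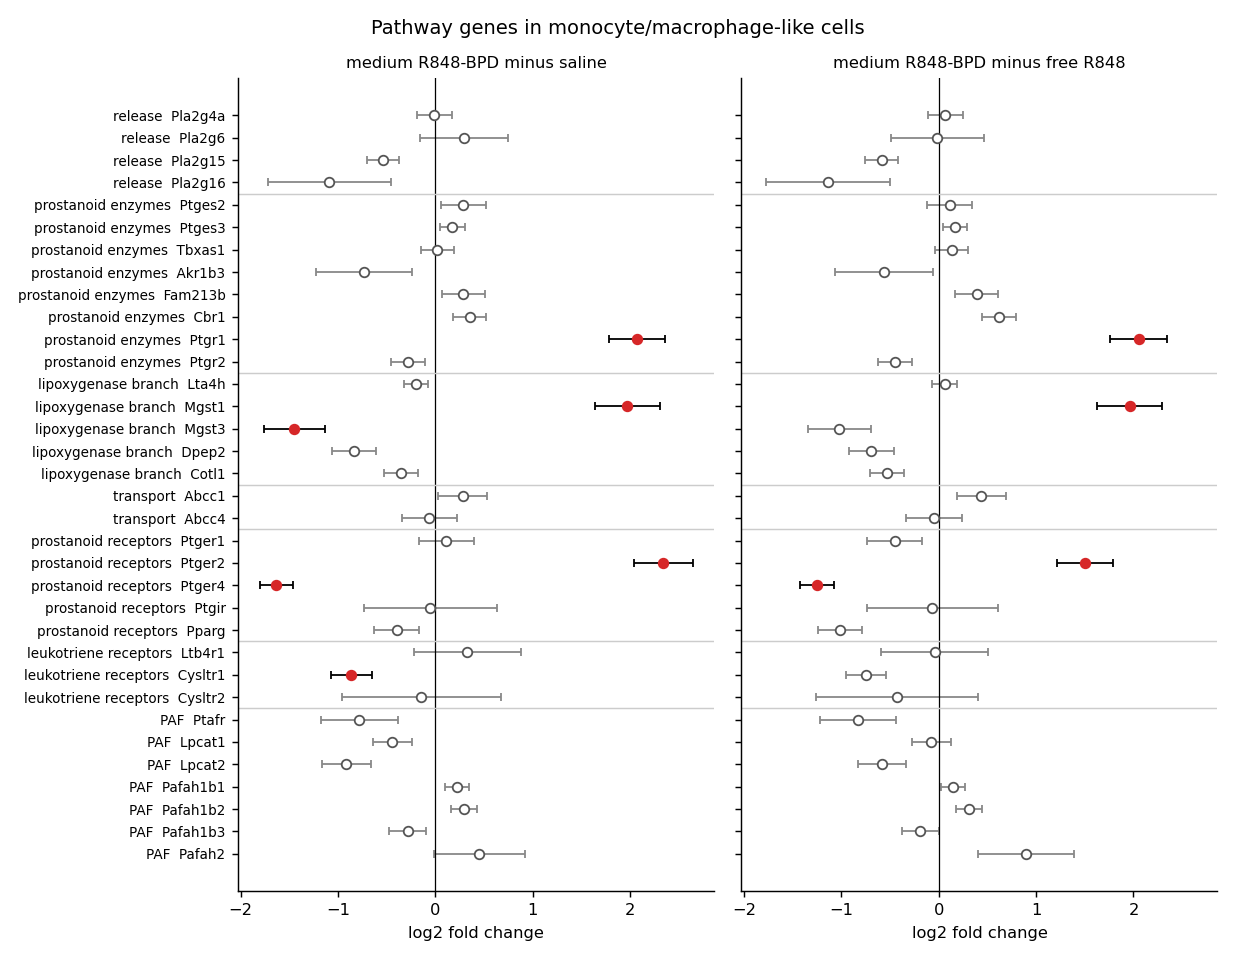
Log2 difference, medium R848-BPD minus free R848, of the tested genes of the wider pathway in monocyte/macrophage-like cells, ordered by role, with standard errors and filled points where the edgeR adjusted p is under 0.05. Ptgr1 (2.05), Mgst1 (1.96) and Ptger2 (1.5) are called higher and Ptger4 (-1.25) lower.

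The plot of the wider pathway shows differences in both directions, with called genes among the enzymes and the PGE2 receptors and none among the 4 tested genes for arachidonic acid release. In the other classes few genes of the list passed. In DC-like cells 12 were tested, and 2 were lower for medium R848-BPD and saline, where 9.7% of all genes were called: the PAF receptor gene Ptafr (log2 -1.40, SE 0.35, adjusted p = 0.0187) and the PAF-making enzyme gene Lpcat2 (log2 -2.43, SE 0.69, adjusted p = 0.0367, edgeR). Ptafr was 175, 244 and 228 CPM after saline, 321, 167 and 220 CPM after free R848, and 71.3 and 84.5 CPM after the medium R848-BPD, below the other 6 tumors. Lpcat2 was 71.3, 0 and 68.4 CPM after saline, 32.7, 35.1 and 21.5 CPM after free R848, and 11.9 and 8.45 CPM after the medium R848-BPD. Saline tumor 2, with 11 DC-like cells, thus lay below both medium R848-BPD tumors in Lpcat2. The higher share of mature cells after the treatments, given with Alox5ap, applies here too, and its part was not tested. In MC38-like cells 26 were tested and 1 was lower against saline, where 1.67% of all genes were called. It was Cotl1, whose product binds 5-lipoxygenase (log2 -1.41, SE 0.31, adjusted p = 0.0423, edgeR). Its level there was 69.8, 61.1 and 83.3 CPM after saline, 50.5, 45.6 and 51.0 CPM after free R848, and 42 and 14.3 CPM after the medium R848-BPD. The medium R848-BPD tumors were the lowest but lay far apart. Monocyte/macrophage-like cells held 599 to 1106 CPM of Cotl1, and the part of macrophage RNA, whose markers are given with Alox5ap, was not tested. None of the 10 tested in T-like cells or the 18 in NK-like cells was called.

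Over 40 sums (5 classes in 8 tumors), the genes most like each member were found by Pearson's r of log2 levels among 10617 candidates. The points share tumors and classes, so r describes the pattern over classes more than over treatments. For Ptges they were Pnma5 (0.93), Olfml2b (0.93) and Tead1 (0.92), and for Pla2g7 they were Gda (0.91), Ccl6 (0.89) and Fcgr2b (0.89). For Ptgs2 they were Ctsz (0.91), AI607873 (0.90) and Mcl1 (0.89), for Alox5ap Tbxas1 (0.92), Dock4 (0.90) and Gpx1 (0.90), and for Hpgds Ch25h (0.92), Sdcbp (0.90) and Capza2 (0.89). Tbxas1 encodes thromboxane synthase, another enzyme of the prostanoid branch. Alox5 was most like Dixdc1 (0.87), Sh2d1b2 (0.87) and Foxa3 (0.85). The sparse members had weaker neighbors, with r up to 0.84 for Ltc4s (Fam83f), 0.76 for Ptgs1 (Prdx5) and 0.68 for Hpgd (Ear2), which are no findings in counts this low.

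By position (GRCm38), Ptges (chr2:30889471-30929863, - strand) and Ptgs1 (chr2:36230426-36252272, + strand) share chromosome 2, and Hpgds (chr6:65117293-65144908, - strand) and Alox5 (chr6:116410077-116461178, - strand) share chromosome 6. Ptgs2 lies at chr1:150100031-150108227 (+ strand), Alox5ap at chr5:149264767-149288153 (+ strand), Hpgd at chr8:56294585-56321043 (+ strand), Ltc4s at chr11:50236461-50238616 (- strand) and Pla2g7 at chr17:43568098-43612201 (+ strand). All 9 are protein-coding genes, and no 2 of them overlap.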

How the data were processed

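Seq-Well libraries of 8 tumors were analysed, 1 library per tumor (saline 3, free R848 3, medium R848-BPD 2). The authors aligned reads to mm10 and deposited tables of raw UMI counts, genes by cells. bcl2fastq is named in the submitters' processing notes, and the aligner and annotation are not given in the sources used here. Nothing says more of the replicates than 1 tumor each, and p-values measure the spread between these tumors. Cells with over 400 and under 10000 genes, under 50000 UMIs and at most 15% mitochondrial UMIs were kept (9886 of 10791 barcodes).  Each cell took the class with the highest marker score (minimum 0.25, margin 0.1), and 95.6% of gated cells lay in clusters of the same class (scanpy 1.11.5). No doublet caller was run, and the 796 cells under the minimum or the margin were left unassigned. Counts were summed per tumor and class (at least 10 cells) and tested over all genes with edgeR 4.0.16 (R 4.3.3), quasi-likelihood, TMM, filterByExpr, all 3 groups in the fit, Benjamini-Hochberg, called under 0.05. Changes between classes were tested as an interaction. Class orders used log2(CPM + 1) and exact permutation tests over tumors (scipy 1.17.1). Tests were checked on simulated data. Named genes were the 9 members, called genes of the pathway list and, for each member, the 3 genes of highest r. The members and lists were chosen with earlier results of these data known. Alternatives were DESeq2 1.42.0, RLE factors, no filter, a stricter gate, clusters, other minimum cells, a replicate block and leaving out each tumor. Replicate numbers were not used to pair the tumors in the main fit.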

Additional observations from a re-analysis of the deposited data

Results flagged for a closer look

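Differences between cell classes under the same contrast stood out for 2 members, both for medium R848-BPD minus free R848. The log2 difference of Ptgs2 was lower in monocyte/macrophage-like than in DC-like cells, by -1.59 (adjusted p = 0.0246, edgeR interaction). That of Ptges was higher in monocyte/macrophage-like than in MC38-like cells, by 3.17 (adjusted p = 0.0108, edgeR interaction). Both calls were lost in some fits without a single tumor, and that of Ptgs2 also with another scaling, as given above. Few cells carried the DC-like Ptgs2 values. Groups of 2 or 3 tumors are too small for the test of single outlying tumors.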

How the results depend on the processing

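Over the 15 counts of members called, 239 of 270 alternative values were within 1.5 times the count given above and 31 were not. Of 558 alternative log2 differences, 525 kept their direction and side of the threshold, 9 lost the call, 14 gained one and 10 turned sign. Without the filter on low counts, the members called in monocyte/macrophage-like cells were 8 (medium R848-BPD and saline) and 2 (free R848 and saline), in DC-like cells 2 (medium R848-BPD and free R848) and 1 (free R848 and saline), in T-like cells 1 and 1 (medium R848-BPD against free R848 and saline), in NK-like cells 2 and 2, and in MC38-like cells 1 (medium R848-BPD and free R848). DESeq2 called 1 for free R848 and saline in monocyte/macrophage-like cells and 1 for medium R848-BPD and free R848 in NK-like cells. With the replicate block, monocyte/macrophage-like cells kept 1 call between the R848 forms (Pla2g7 moved to log2 1.28, adjusted p = 0.0559) and NK-like cells gained 1. The labels name no batch or litter for the replicate numbers. Same-numbered tumors gave deviations from their group means that correlated between -0.22 and 0.20. In a group of 2 tumors these deviations mirror each other, so the correlations cannot decide whether same-numbered tumors were handled together. With the block the genes called in monocyte/macrophage-like cells fell from 165 to 47 (medium R848-BPD and free R848) and from 744 to 377 (against saline). With classes from clusters, 0 members were called in NK-like cells for medium R848-BPD and saline. With the stricter gate 1 was called in DC-like cells (free R848 and saline), 2 in MC38-like cells (medium R848-BPD and saline), and 0 neighbor pairs of classes passed, with 6 to 8 tumors a pair. With RLE factors 0 interactions were called against DC-like cells (Ptgs2 -1.51). The cause of these changes was not tested.

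Leaving out 1 tumor at a time, members called ranged from 1 to 2, 0 to 1 and 2 to 5 in monocyte/macrophage-like cells (medium R848-BPD and free R848, free R848 and saline, medium R848-BPD and saline), 5 being without saline tumor 2. Without 1 medium R848-BPD tumor, the 1 left is assumed to vary like the other groups. In NK-like cells they ranged from 0 to 2 and 0 to 2, in T-like cells from 0 to 1 and 0 to 1, and in MC38-like cells from 0 to 1 and 0 to 2, for medium R848-BPD against free R848 and saline. Interactions called ranged from 0 to 1 against DC-like and 0 to 4 against MC38-like cells. Ptges in MC38-like cells turned, between the R848 forms, to -0.084 with the replicate block and -0.13 with the stricter gate, and ranged from -0.88 to 0.59 with 1 tumor left out (-1.08 to 0.39 against saline). The monocyte/macrophage-like ranges that crossed 0 were -1.09 to 0.021 for Ptgs1 (medium R848-BPD minus free R848), -0.62 to 0.28 for Ptgs2 and -0.48 to 0.020 for Hpgds (both free R848 minus saline), and -0.072 to 0.22 for Alox5ap (medium R848-BPD minus saline). Over all alternatives the genes called ranged, in the order medium R848-BPD minus free R848, free R848 minus saline and medium R848-BPD minus saline, from 14 to 903 (165 above), 1 to 598 (3) and 94 to 1756 (744) in monocyte/macrophage-like cells, 1 to 82 (11), 3 to 294 (75) and 111 to 643 (433) in DC-like, 0 to 106 (11), 0 to 25 (0) and 0 to 83 (10) in T-like, 7 to 143 (26), 0 to 13 (0) and 37 to 225 (68) in NK-like, and 7 to 478 (68), 0 to 183 (6) and 48 to 712 (178) in MC38-like cells. Depth limits Hpgd (0 to 9 UMIs per tumor in monocyte/macrophage-like cells), Ltc4s (2 to 19) and Ptgs1 (6 to 67).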

Other observations

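Small classes hold values that enter no comparison. In the fibroblast-like cells of the medium R848-BPD tumors (11 and 31 cells), Ptges was 136 and 291 CPM and Ptgs2 was 317 and 525 CPM. At least 10 neutrophil-like cells were found in 3 tumors. In the one of free R848 (32 cells) Ptgs2 was 2470 CPM, Alox5ap 481 CPM and Alox5 67.1 CPM. In those of the medium R848-BPD (14 and 22 cells) Ptgs2 was 575 and 340 CPM, Alox5ap 1436 and 488 CPM, and Alox5 76.6 and 11.3 CPM.

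Cells with a UMI of Il1b, the gene of the cytokine interleukin-1 beta, more often had a Ptgs2 UMI too. At 1000 UMIs per cell, the share of monocyte/macrophage-like cells with Ptgs2 was 43.6%, 25.2% and 57.7% among Il1b-positive cells of the saline tumors, against 10.4%, 7.61% and 14.0% among the rest. It was 38.7%, 40.3% and 37.1% against 17.7%, 19.1% and 14.0% after free R848, and 33.9% and 33.2% against 14.5% and 15.5% after the medium R848-BPD. The Il1b-positive cells had the higher share in 8 of 8 tumors.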
